A study of Mus musculus with 4 samples.

Results

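RNA sequenced from haploid cells of mouse testis was searched for 10 transcripts known from cells other than germ cells. Their levels were taken as a possible measure of how much somatic and blood RNA the sorted fractions held. Whether germ cells made any of these transcripts was not tested. The transcripts were chosen by name: 5 of Leydig cells (Insl3, Cyp17a1, Cyp11a1, Hsd3b1 and Star), 4 adult globin genes of red blood cells (Hba-a1, Hba-a2, Hbb-b1 and Hbb-b2), and Acta2, the actin of smooth muscle and of the contractile cells around the seminiferous tubule. All 10 were found among the 22552 gene symbols measured. There were 2 libraries of Sox30 knockout mice and 2 of wild-type mice, all male and 23 days old, made from testis cells stained with the DNA dye Hoechst and sorted by fluorescence, per the labels' protocols. SOX30 is a transcription factor of male germ cells. The knockout allele is not described further in the labels. Background strain was entered as DBA/C58/ICR and DBA/C60/ICR for knockout libraries 1 and 2, and DBA/C57/ICR and DBA/C59/ICR for wild-type libraries 1 and 2, a number that goes up by 1 from sample to sample, so it is uncertain whether these are real differences in background; strain as labelled was not used. No label ties the 2 libraries of a genotype to separate animals, and each p-value below therefore reflects the spread of the libraries at hand, possibly a technical one.

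Leydig cells lie between the tubules and make androgens from cholesterol. StAR, the product of Star, brings cholesterol to the inner mitochondrial membrane. The enzymes encoded by Cyp11a1, Hsd3b1 and Cyp17a1 then turn it into androgen precursors. Insl3 codes for a peptide hormone of the same cells, best known for its part in the descent of the testis. Haemoglobin is built of alpha chains, encoded by the Hba genes, and beta chains, encoded by the Hbb genes, and its messengers dominate the RNA of young red blood cells. Round spermatids, the labelled cell type, are the haploid cells that go on to form the acrosome and the tail.

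The coding sequences of the alpha globin copies are nearly identical. In the GENCODE M21 annotation (build GRCm38, not the mm9 build named in the submitters' processing notes) the coding sequences of Hba-a1 and Hba-a2, both on the plus strand of chromosome 11, are 429 bases long and identical at 428 of them. The copies differ by C381T, counted from the A of the start codon with the base of Hba-a1 first. The end of the coding sequence, bases 351 to 429, is shown for both copies, 5′ to 3′, with the differing base in capitals, because it holds the single base by which their coding reads can be told apart.
Hba-a1: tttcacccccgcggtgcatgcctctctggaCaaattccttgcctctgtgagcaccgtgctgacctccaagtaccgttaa
Hba-a2: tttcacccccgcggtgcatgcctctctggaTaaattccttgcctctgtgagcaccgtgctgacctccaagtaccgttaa
The first 380 bases are the same in both, so a read within them cannot be assigned to a copy; the untranslated ends were not compared. Alpha globin levels are therefore given for each copy and as a sum. The sequences of the beta copies, Hbb-b1 and Hbb-b2, were not compared, and their levels are given in the same way.

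Levels are FPKM, fragments scaled for transcript length and for the size of the library, as computed by the authors. The files hold no counts, so absolute depth is unknown. Relative depth was estimated from low genes that agree between libraries at a fixed ratio: with wild-type library 1 set to 1, it was 1.24 and 1.17 in knockout libraries 1 and 2 and 1.39 in wild-type library 2. More symbols were listed at 0 in the knockout libraries (9329 and 11112) than in the wild-type libraries (6414 and 5915). Sox30 itself, the check of the labels, stood at 1.46 and 3.16 FPKM in knockout libraries and at 11.4 and 16.2 FPKM in wild-type libraries (limma adjusted p = 0.0219), though this call was lost without either wild-type library (limma adjusted p = 0.295 and 0.357 without library 1 and 2). Of 11 round spermatid markers, all were above 0 in both wild-type libraries and 1, Tssk6, was at 0 in both knockout libraries.

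All but the second copies of the globin genes were lower in both knockout libraries than in either wild-type library. This held for 8 of the 10 transcripts, where it held for 40.0% of the 17790 symbols with a value above 0 in any library, and for 38.6% of the genes that were tested. Summed over the 10 transcripts, the level was 9.81 and 0.178 FPKM in knockout libraries 1 and 2, against 315 and 190 FPKM in wild-type libraries 1 and 2. As a share of all FPKM in the library, that was 16.4 and 0.264 ppm in the knockout and 555 and 380 ppm in the wild type. In bulk RNA of this kind, fewer cells of a type and less RNA per cell cannot be told apart.

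**Figure D1:**
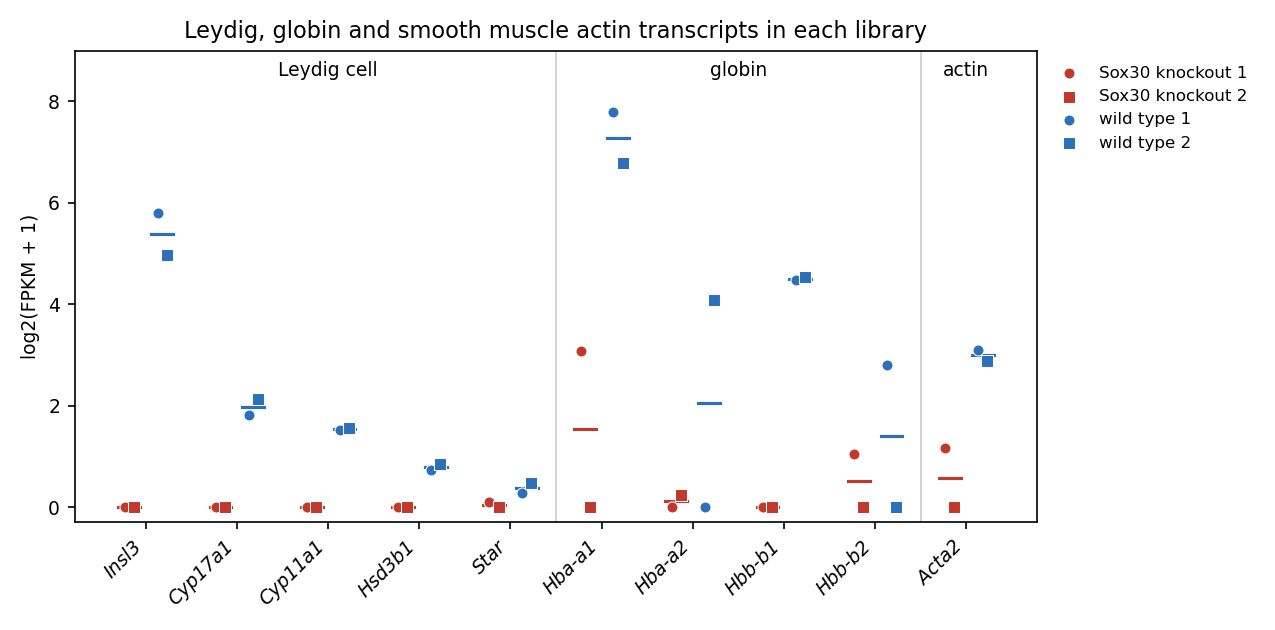
Level of each transcript, as log2(FPKM + 1), in Sox30 knockout libraries (red, left of each name) and wild-type libraries (blue, right of each name). Circles are library 1, squares library 2 and bars the mean of 2. Hba-a1 and Insl3 stand highest in the wild type, and only Hba-a2 and Hbb-b2 have overlapping groups.

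A gene was tested where its mean over the 4 libraries was at least 1 FPKM, which 7 of the 10 transcripts reached and Cyp11a1, Hsd3b1 and Star did not. At a limma adjusted p under 0.05, 5 of the 7 fell in the knockout (Insl3, Cyp17a1, Hba-a1, Hbb-b1 and Acta2), 0 rose (also 0 at an unadjusted p under 0.05), and Hba-a2 and Hbb-b2 did not pass. Over all 9124 genes tested, 13.4% fell and 1.95% rose. A transcript that is near 0 in one genotype reaches the minimum only through the other, so the count over these 7 does not speak for all 10. The same limit holds for the tested genes of each list of marker genes given below. Without wild-type library 1 the count was 3, with 386 genes lower and 0 higher among all tested in limma. Without wild-type library 2 it was 0, and no gene of all tested passed in limma, where 1412 had an unadjusted p under 0.05, so every call from these 9124 genes given here was lost without that library. After quantile normalization the same 5 passed, while the balance of calls over all genes moved to 999 lower and 961 higher, against 1221 and 178 without it.

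Insl3, the peptide hormone, was by far the most abundant of the Leydig transcripts. It was listed above 0 but under 0.0001 FPKM in both knockout libraries, against 54.8 and 30.3 FPKM in wild-type libraries 1 and 2, a wild-type mean of 42.5 ± 17.3 FPKM (SD, n = 2). The groups lay far apart, and the wild-type values exceeded those of 92.9% and 89.6% of all symbols in their libraries. The fall passed the test (limma adjusted p = 9.3e-04) and kept passing without wild-type library 1 (limma adjusted p = 0.0468) but not without wild-type library 2 (limma adjusted p = 0.0653). Of the 2961 symbols with a wild-type mean of at least 20 FPKM, a limit chosen after the values were seen, 1.89% were under 0.0001 FPKM in both knockout libraries. In the GENCODE annotation Insl3 overlaps Jak3, a kinase gene on the same strand of chromosome 8, so fragments can be shared between them. Jak3, named for this overlap, was at 1.64 and 0.892 FPKM in knockout libraries and 0.850 and 1.05 FPKM in wild-type libraries (limma adjusted p = 0.724).

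The steroid enzymes were low in the wild type and at 0 in the knockout. Cyp17a1, whose enzyme makes androgen precursors, was listed at 0 in both knockout libraries, against 2.50 and 3.40 FPKM in wild-type libraries, and fell (limma adjusted p = 0.0107). Cyp11a1, the enzyme of the first step from cholesterol, was listed at 0 in both knockout libraries, against 1.87 and 1.94 FPKM in wild-type libraries; its locus overlaps a long non-coding RNA on the same strand. Hsd3b1 was listed at 0 in both knockout libraries too, against 0.671 and 0.795 FPKM in wild-type libraries. For each of the 3 enzymes the wild-type values were close and stood clear of the knockout pair. Star, the cholesterol carrier, was at 0.0674 FPKM in knockout library 1 and 0 in knockout library 2, against 0.218 and 0.387 FPKM in wild-type libraries. Its knockout and wild-type values did not overlap, but all were low. When every symbol with a value above 0 was tested, 17790 in all, Cyp11a1 and Hsd3b1 passed (limma adjusted p = 0.0419 for each) and Star did not (limma adjusted p = 0.134).

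The Leydig transcripts did not keep one proportion in the wild type. Insl3 was 21.9 and 8.91 times the level of Cyp17a1 in wild-type libraries 1 and 2, and 29.3 and 15.6 times that of Cyp11a1, all per transcript length. Between the 2 wild-type libraries Insl3 was 1.81 times higher in library 1, whereas Cyp17a1, Cyp11a1, Hsd3b1 and Star were at 0.736, 0.963, 0.844 and 0.564 of their library 2 levels there. The order from high to low in both wild-type libraries was Insl3, Cyp17a1, Cyp11a1, Hsd3b1 and Star, with each wild-type pair clear of its neighbours. The sum of the 5 was 0.0674 FPKM and under 0.0001 FPKM in knockout libraries 1 and 2, against 60.0 and 36.8 FPKM in wild-type libraries 1 and 2. Without Insl3 it was 5.26 and 6.52 FPKM in wild-type libraries.

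Other Leydig genes gave no call. A list of 22 Leydig-associated genes, all of them in the tables, held 17 beside the 5 described, and of the 7 of these that could be tested 0 passed in either direction in limma, with 0 lower and 1 higher at an unadjusted p under 0.05 (median log2 change 0.41, against -0.23 over all genes tested). Over all 17, tested or not, 7 were lower in both knockout libraries than in either wild-type library and 3 were higher. Of the 17790 symbols with a value above 0 in any library, 40.0% were lower in this way, and 7 of 17 is near that share. Most of the 7 were scarce: Hsd3b6, Nr5a1, Hsd11b1, Klk1b21 and Prlr, named after their values were seen, were at 0 in both knockout libraries and between 0.0187 and 0.522 FPKM in wild-type libraries. The most abundant was Fdx1, the electron carrier of mitochondrial steroid enzymes, which is also made in other tissues, at 106 and 238 FPKM in knockout libraries and 105 and 90.5 FPKM in wild-type libraries (limma adjusted p = 0.319). Cyb5, a cytochrome that assists the CYP17A1 enzyme and is likewise widespread, was at 49.1 and 40.0 FPKM in knockout libraries and 29.6 and 29.5 FPKM in wild-type libraries (limma adjusted p = 0.248). The receptor and the last enzyme of the pathway, also named after their values were seen, were scarce in both genotypes. Hsd17b3, which completes testosterone, was listed at 0 in all 4 libraries. Lhcgr, the receptor for luteinizing hormone, was at 0.164 FPKM in wild-type library 1 and at 0 elsewhere. Hsd3b6, a relative of Hsd3b1, was at 0 in both knockout libraries, against 0.0815 and 0.498 FPKM in wild-type libraries. Genes of the Hsd3b family resemble each other, so reads may be shared between them.

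Taken as a sum, globin was more abundant in the wild type than the Leydig transcripts or Acta2, and it was low in the knockout. The sum of the 4 copies was 8.51 and 0.178 FPKM in knockout libraries 1 and 2, against 248 and 147 FPKM in wild-type libraries 1 and 2. The wild-type sums were thus far above both knockout sums, and the 2 knockout libraries differed from each other more, in proportion, than the wild-type libraries did. On the log2(FPKM + 1) scale the difference of the sums, knockout minus wild type, was -5.84, given without a test.

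Within the sum, the split between copies changed from library to library. Hba-a1 was at 7.45 FPKM in knockout library 1 and under 0.0001 FPKM in knockout library 2, against 220 and 109 FPKM in wild-type libraries, a log2 change of -5.75 that passed the test (SE 0.99; limma adjusted p = 0.0140). Hba-a2 was at 0.00171 and 0.178 FPKM in knockout libraries, against 0.00370 FPKM in wild-type library 1 and 16.0 FPKM in wild-type library 2 (limma adjusted p = 0.336). Its groups overlapped, and wild-type library 1, which had the most Hba-a1, had almost no Hba-a2. Added together, the alpha copies came to 7.45 and 0.178 FPKM in knockout libraries, against 220 and 125 FPKM in wild-type libraries. Each alpha symbol stood on 2 entries in every file, and these were added.

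The split between the beta copies also changed from library to library, and whether they shared reads was not tested. Hbb-b1 was at no more than 0.0001 FPKM in either knockout library, against 21.2 and 22.2 FPKM in wild-type libraries, a wild-type mean of 21.7 ± 0.706 FPKM (SD, n = 2), and fell (limma adjusted p = 9.0e-04). Hbb-b2 was at 1.06 and 0 FPKM in knockout libraries, against 5.94 FPKM in wild-type library 1 and 0.000438 FPKM in wild-type library 2 (limma adjusted p = 0.552). In knockout library 1 nearly all beta globin was thus listed under Hbb-b2, and in wild-type library 2 nearly all under Hbb-b1. Their sum was 1.06 and 0 FPKM in knockout libraries, against 27.2 and 22.2 FPKM in wild-type libraries. Alpha exceeded beta 7.02 times in knockout library 1, against 8.11 and 5.62 times in wild-type libraries 1 and 2, with levels per transcript length. The embryonic globins Hba-x and Hbb-bh1, added after their values were seen, were at 0 in all 4 libraries, and Hbb-y reached 0.125 FPKM in wild-type library 2 alone.

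**Figure D2:**
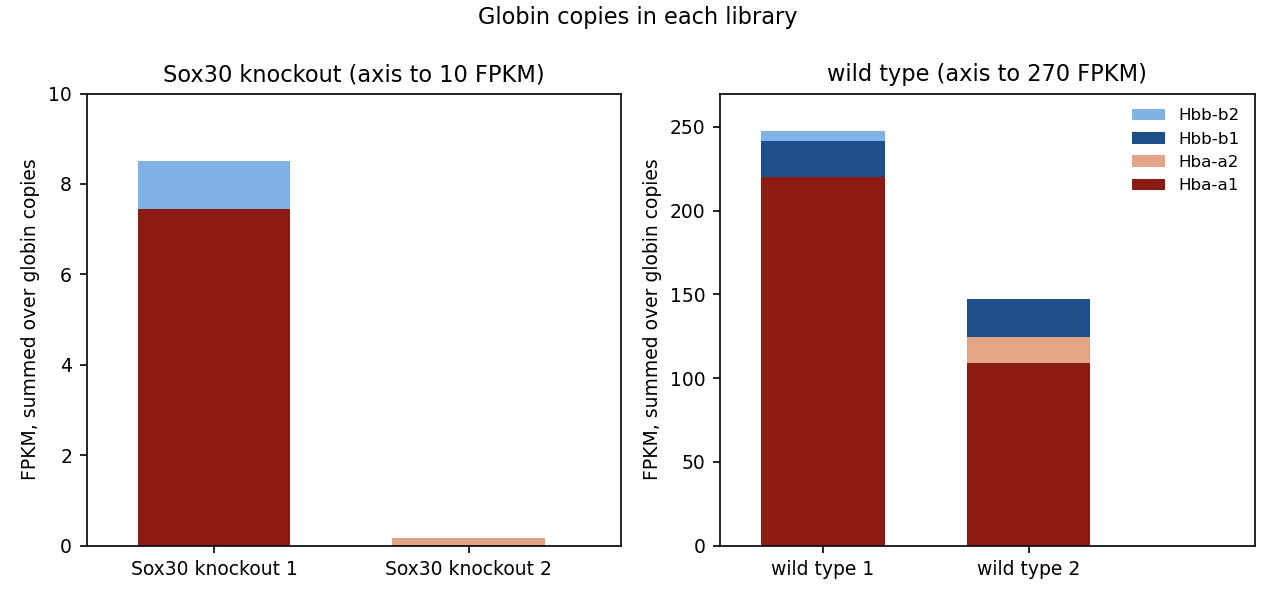
FPKM of the 4 adult globin copies, stacked, in Sox30 knockout libraries (left panel) and wild-type libraries (right panel), on axes of different length. The sums are 8.51 and 0.178 FPKM on the left and 248 and 147 FPKM on the right. The share listed under each copy differs between libraries of one genotype.

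The call on Hba-a1 rested on the libraries used: it was lost without wild-type library 1 (limma adjusted p = 0.381), without wild-type library 2 (0.363), with a pseudocount of 0.1 (0.0932) and with no filter on low values (0.0763). That on Hbb-b1 was lost without wild-type library 2 alone (limma adjusted p = 0.0653).

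Among other red blood cell genes, some fell and most of those tested did not pass. Of a list of 30, 28 symbols were in the tables. Beside the 4 globin copies, 8 could be tested: 3 fell, 0 rose (also 0 at an unadjusted p under 0.05) and 5 did not pass, beside 13.4% of all genes that fell in limma (median log2 change -0.14, against -0.23 over all genes tested). The 3 were Car2, a carbonic anhydrase, at 0.0330 and 0 FPKM in knockout libraries and 12.8 and 6.03 FPKM in wild-type libraries (limma adjusted p = 0.00520); Hemgn, a nuclear protein of blood precursors, at 0 in both knockout libraries and 4.60 and 3.49 FPKM in wild-type libraries (limma adjusted p = 0.00625); and Fech, the last enzyme of haem synthesis, named after its values were seen, at 0.746 and 0.814 FPKM in knockout libraries and 4.0 and 6.46 FPKM in wild-type libraries (limma adjusted p = 0.0272). Whether germ cells made Car2, Hemgn or Fech was not tested. Bpgm, which makes the phosphate ester that tunes oxygen release, was the most abundant of the rest, at 47.2 and 51.0 FPKM in knockout libraries and 60.1 and 53.1 FPKM in wild-type libraries (limma adjusted p = 0.668). Genes of the red cell lineage, named after their values were seen, ranged from 0 to several FPKM. Klf1, a transcription factor of red cell precursors, was at 7.66 and 8.74 FPKM in knockout libraries and 6.21 and 5.07 FPKM in wild-type libraries (limma adjusted p = 0.398). Epor, the erythropoietin receptor, was at 4.93 and 4.53 FPKM in knockout libraries and 2.52 and 2.16 FPKM in wild-type libraries (limma adjusted p = 0.186). Neither passed the test, and both were higher in each knockout library. Alas2, the first enzyme of haem synthesis in red cells, was at 0 in both knockout libraries and 0.188 and 0.868 FPKM in wild-type libraries. Slc4a1, the anion exchanger of the red cell membrane, was above 0 in wild-type library 2 alone, at 0.0422 FPKM.

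Acta2, the smooth muscle actin, was low in both genotypes and lower in the knockout. It was at 1.23 FPKM in knockout library 1 and 0 in knockout library 2, against 7.61 and 6.39 FPKM in wild-type libraries, a log2 change of -2.42 that passed the test (SE 0.48; limma adjusted p = 0.0230). The groups did not overlap, but the call was lost without wild-type library 1 (limma adjusted p = 0.348), without wild-type library 2 (0.352), with a pseudocount of 0.1 (0.114) and with no filter on low values (0.0880). Actg2, the actin of visceral smooth muscle and the most abundant of a list of 12 genes of peritubular and smooth muscle cells, was at 1.63 and 0.102 FPKM in knockout libraries and 72.8 and 63.0 FPKM in wild-type libraries (limma adjusted p = 0.00147). The 2 coding sequences are 83.8% identical over 1131 bases, with no identical run longer than 29 bases. Whether germ cells made Actg2 was not tested. Of the 3 list members tested, Acta2 and Actg2 fell, and Myl9, a myosin light chain, did not pass, at 8.48 and 0.327 FPKM in knockout libraries and 8.01 and 9.26 FPKM in wild-type libraries (limma adjusted p = 0.324). Without both actins, the other 10 genes summed to 9.03 and 3.03 FPKM in knockout libraries and 10.7 and 12.02 FPKM in wild-type libraries. Myh11, the smooth muscle myosin that defines the cell type, was named after its values were seen. It was at 0 in both knockout libraries and at 0.00993 and 0.0644 FPKM in wild-type libraries.

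**Figure D3:**
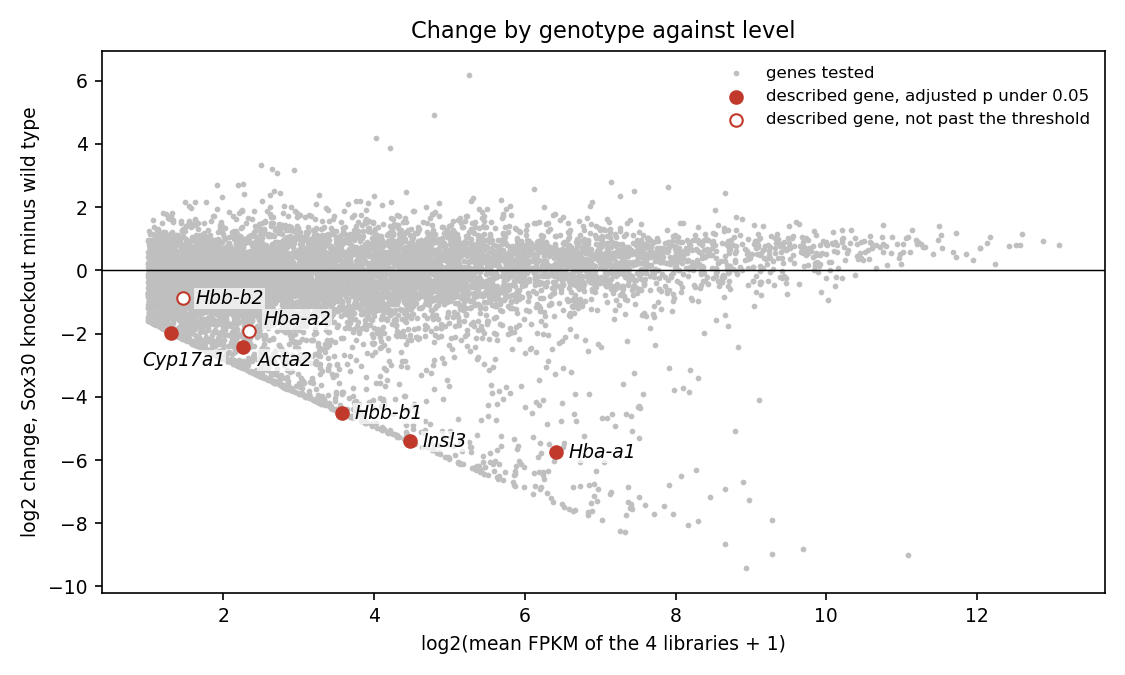
Log2 change of each gene tested, Sox30 knockout minus wild type on the log2(FPKM + 1) scale, against log2(mean FPKM + 1) over the 4 libraries (grey, 9124 genes). Filled red points are the 5 described transcripts past the threshold and open ones the 2 that did not pass. Insl3, Hbb-b1 and Cyp17a1 lie on the lower edge, where genes near 0 in both knockout libraries fall.

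Markers of other cell types of the testis did not move as one with these transcripts. Each list is given by its counts, beside the 13.4% of genes that fell and the 1.95% that rose. Among 19 Sertoli cell genes in the tables, 9 were tested and 0 fell or rose in limma, with 1 lower and 0 higher at an unadjusted p under 0.05. Cst12, the most abundant, was at 285.5 and 383 FPKM in knockout libraries and 178 and 291 FPKM in wild-type libraries (limma adjusted p = 0.343). The list summed to 420 and 474 FPKM in knockout libraries, between the 308 and 637 FPKM of wild-type libraries.

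A pair of endothelial genes rose, both past the minimum for testing only through their knockout levels. Of 13, 3 were tested and 2 passed: Cldn5, a tight junction protein, at 4.55 and 10.2 FPKM in knockout libraries and 0.0544 and 0.352 FPKM in wild-type libraries (limma adjusted p = 0.0123), and Ly6c1, a surface antigen, at 4.91 and 9.44 FPKM in knockout libraries and 0.431 and 0.541 FPKM in wild-type libraries (limma adjusted p = 0.0134). Egfl7, a secreted protein of vessels, did not pass, at 1.75 and 6.83 FPKM in knockout libraries and 1.53 and 1.15 FPKM in wild-type libraries (limma adjusted p = 0.276). Over all 13 genes, 4 were higher in both knockout libraries and 3 lower. Of the 17790 symbols with a value above 0 in any library 40.0% were lower in this way, and of the genes tested 22.2% were higher. Pecam1, Cdh5 and Emcn, which define the cell type and were named after their values were seen, were at 0.118 FPKM or less in each library. The list summed to 14.4 and 26.8 FPKM in knockout libraries and 2.66 and 3.09 FPKM in wild-type libraries.

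Among 23 macrophage and leukocyte genes, 3 were tested. Aif1, known from macrophages and also from spermatids, fell, at 1.23 and 0 FPKM in knockout libraries and 351 and 290 FPKM in wild-type libraries (limma adjusted p = 5.2e-04). Fcer1g, an adaptor of antibody receptors, rose, at 1.91 and 1.76 FPKM in knockout libraries and 0.158 and 0.225 FPKM in wild-type libraries (limma adjusted p = 0.0427). The third, Cd14, did not pass. Without Aif1 the other 22 genes summed to 5.55 and 3.96 FPKM in knockout libraries and 2.88 and 3.83 FPKM in wild-type libraries. Of 9 fibroblast and matrix genes, 4 were tested and 1 fell, Igfbp7, a secreted growth factor binding protein, at 1.76 and 5.70 FPKM in knockout libraries and 18.6 and 17.1 FPKM in wild-type libraries (limma adjusted p = 0.0407). Sparc and Mgp, the most abundant of these genes, did not pass. Sparc was at 17.8 and 3.51 FPKM in knockout libraries and 16.7 and 43.3 FPKM in wild-type libraries (limma adjusted p = 0.221). Mgp was higher in each knockout library, at 18.2 and 38.4 FPKM, against 3.14 and 15.05 FPKM in wild-type libraries (limma adjusted p = 0.162). Dcn, named after its values were seen, was tested and did not pass (limma adjusted p = 0.1035). Its level was 0 in both knockout libraries and 1.11 and 8.95 FPKM in wild-type libraries. At an unadjusted p under 0.05 in limma, 2 of the 4 tested were lower and 0 higher. Over all 9 genes, 5 were lower in both knockout libraries than in either wild-type library, and 1 was higher. Of the 17790 symbols with a value above 0 in any library, 40.0% were lower in this way. Among the genes tested, 22.2% were higher. The fibroblast and matrix list summed to 37.9 and 47.6 FPKM in knockout libraries and 40.0 and 85.8 FPKM in wild-type libraries.

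Genes of germ cells moved as well. Of 9 spermatogonial genes 6 were tested, and in limma 4 fell and 0 rose. At an unadjusted p under 0.05, 4 were lower and 1 higher. Stra8, the retinoic acid target that precedes meiosis, fell (limma adjusted p = 0.00322). Stra8 was at 0 in both knockout libraries and 7.20 and 5.48 FPKM in wild-type libraries. Dmrt1, Sohlh1 and Uchl1 fell too (limma adjusted p = 0.00984, 0.00821 and 0.0235). Dmrt1 and Sohlh1 were at 0 in both knockout libraries. Id4 was higher in each knockout library but did not pass (limma adjusted p = 0.157). Id4 was at 12.96 and 15.48 FPKM in knockout libraries and 7.496 and 7.682 FPKM in wild-type libraries. Over all 9 spermatogonial genes, 7 were lower in both knockout libraries than in either wild-type library, and 1 was higher. That share of lower genes was 40.0% over the 17790 symbols with a value above 0 in any library. The spermatogonial list summed to 20.1 and 21.2 FPKM in knockout libraries and 41.0 and 44.8 FPKM in wild-type libraries. Of 11 round spermatid genes 5 fell and 0 rose, and the list summed to 2187 and 1372 FPKM in knockout libraries and 10120 and 6903 FPKM in wild-type libraries. Prm1 and Tnp1, whose products act in the compaction of spermatid chromatin, made up most of the wild-type sums. The other 9 genes summed to 2157 and 1370 FPKM in knockout libraries and 3068 and 2790 FPKM in wild-type libraries. The part of any of these cell types in the levels of the 10 transcripts was not tested.

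**Figure D4:**
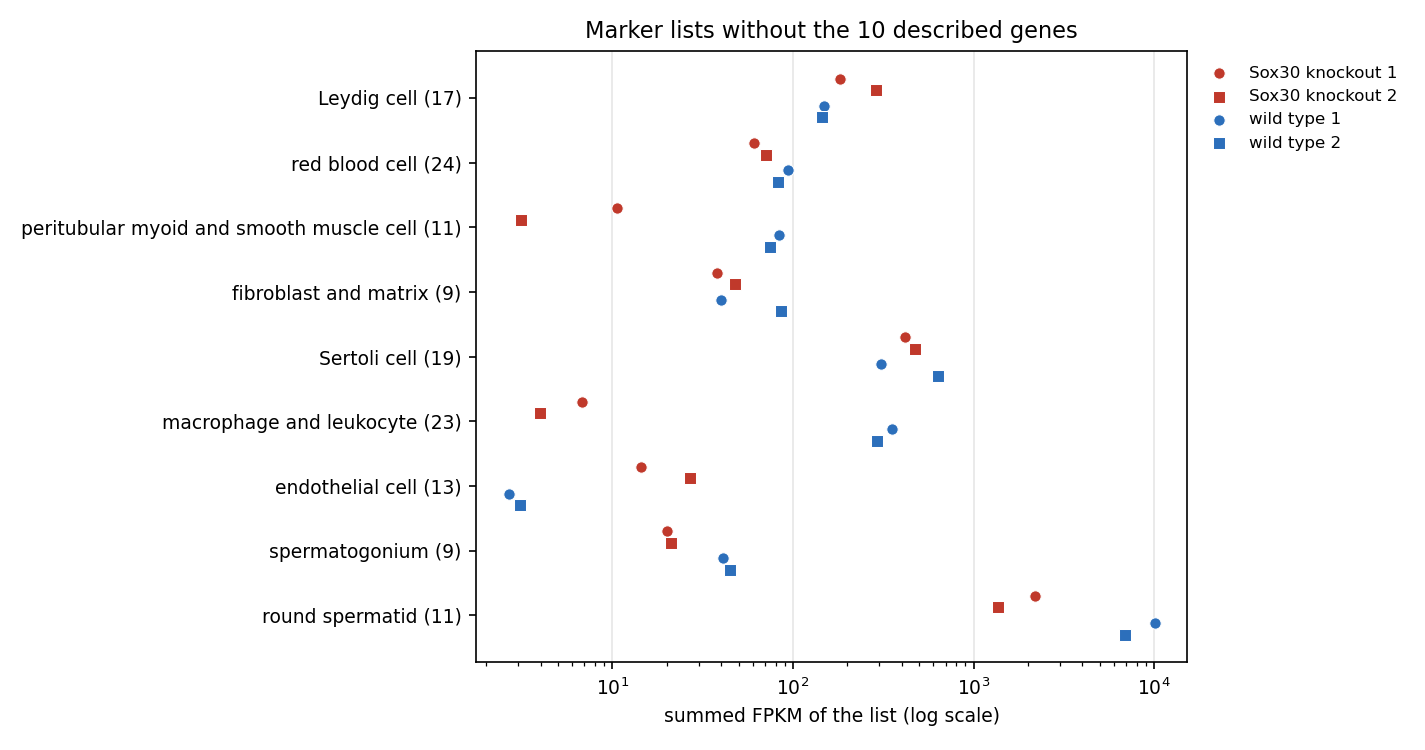
Summed FPKM of each marker list, without the 10 described transcripts, on a log axis, in Sox30 knockout libraries (red, upper) and wild-type libraries (blue, lower). The number of genes stands in brackets. The endothelial and Leydig sums were higher in both knockout libraries, though without Fdx1 the Leydig sums overlapped (75.3 and 49.7 FPKM in the knockout, 43.5 and 54.9 FPKM in the wild type). The smooth muscle, macrophage, red blood cell, spermatogonial and round spermatid sums were lower, and the Sertoli and fibroblast sums overlapped or lay within the wild-type spread. Without Aif1 the macrophage sums were instead higher in both knockout libraries (5.55 and 3.96 FPKM, against 2.88 and 3.83 FPKM in the wild type). Without Actg2 the smooth muscle sums were 9.03 and 3.03 FPKM in the knockout and 10.7 and 12.02 FPKM in the wild type.

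The genes most like Insl3 and the globin sum across the 4 libraries were taken by the root mean square difference of log2(FPKM + 1) after each was centred on its own mean, among tested genes outside the marker lists. For Insl3, the closest was Gapdhs, a glycolytic enzyme of sperm, with a difference of 0.08; it was at 0 in both knockout libraries and 54.9 and 34.7 FPKM in wild-type libraries. The next were 4933425H06Rik, 1700012A03Rik, Iqcf6 and Prss52, with differences of 0.09 to 0.12, each at 0 in both knockout libraries. For the globin sum the closest was Lrrc18, a leucine-rich repeat gene, with a difference of 0.21, at 8.79 and 0.490 FPKM in knockout libraries and 292 and 226 FPKM in wild-type libraries. Gm5941, 4930451I11Rik, Lyzl4 and 4930522H14Rik followed, with differences of 0.24 to 0.34. With 4 libraries in 2 genotypes, many genes have a near pattern by this measure, and the likeness is a description of these libraries.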

How the data were processed

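Each library came as a deposited table of FPKM that the authors computed. Per the submitters' processing notes, the tools were TopHat2 (2.0.6), Cufflinks (2.0.2) and Cuffdiff and the build mm9, with no roles given. Settings, use of strand, and the way fragments of near-identical copies or overlapping genes were divided were not stated there. The NEBNext Ultra RNA kit served for library construction, per the labels' protocols. Symbols on several entries, 259 of them, were summed. Values were not rescaled. Groups were read from the titles.

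The fit took genes whose mean was at least 1 FPKM and was made with limma 3.58.1 in R 4.3.3 on log2(FPKM + 1), with genotype as the only term and a mean-variance trend, two-sided, with Benjamini-Hochberg adjustment over 9124 genes and a threshold of 0.05. Fold changes on this scale understate those of low genes. Residual degrees of freedom were 2. The fit and the depth method were tested on simulated data. For the fit, every simulated gene had a normal spread with no floor at 0. That simulation therefore does not cover transcripts listed at 0 in both libraries of a genotype. Relative depth is the ratio at which the largest share of genes under 0.5 FPKM (5.44% to 8.89%, against 0.184% to 0.249% at a typical ratio) agree between libraries within 0.01 on the log2 scale. Alternatives changed the pseudocount, the filter, the scaling, the variance model, the threshold, the libraries used, the replicate block and the treatment of symbols on several entries. Sums over genes were given no p. The transcripts, the marker lists and the rules for naming genes were chosen with earlier results of these data known. From each list the text names some, not all, of the members past the threshold and of the most abundant. Others are marked as named after their values were seen. Of the lists' genes, Ahsp and Rhox5 found no match by symbol or synonym.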

Additional observations from a re-analysis of the deposited data

How the results depend on the processing

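The number of the 10 transcripts that fell was 5 and stayed within 1.5 times of that under most settings. It was 3 with a pseudocount of 0.1, 3 with a mean of at least 5 FPKM (where 3 could be tested), and ranged from 0 to 7 when each library was left out in turn. A genotype left with 1 library has no spread of its own and was assumed to vary like the rest. Without a knockout library limma gave the prior infinite weight, so every gene took the spread typical of its level and not its own; the counts of 7 and 6 from those fits show nothing about Hba-a2 and Hbb-b2, whose wild-type values lie far apart. Without a wild-type library the prior had 1.22 and 1.18 degrees of freedom. No setting made a transcript rise past the threshold. The log2 change of Hba-a2 was -1.93 and lay between -3.97 (without wild-type library 1) and 0.11 (without wild-type library 2). That of Hbb-b2 was -0.88 and lay between -2.27 (without wild-type library 2) and 0.52 (without wild-type library 1). Both changes of sign missed the threshold, and each came with leaving out the wild-type library that held most of that copy. The difference of the globin sum was -5.84 and was -4.16 with symbols on several entries left out, which removes both alpha copies. That of the Leydig sum was -5.54 and became -8.51 with a pseudocount of 0.1, -3.37 with a pseudocount of 5 and -5.09 after quantile normalization. Leaving out each library gave -7.35 to -4.33 for the globin sum and -5.88 to -5.19 for the Leydig sum. The median change of all genes was -0.23, -0.03 with median-ratio scaling, -0.45 with equal totals and 0.24 after quantile normalization.

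With the library number as a replicate block the same 5 transcripts fell; deviations of same-numbered libraries had a correlation of -0.20 over 9124 genes, and the labels give the number no meaning beyond the library. A crossed pairing, added after seeing the data, also gave 5, with 1416 genes lower and 390 higher in all. A correction for transcript GC content, also added later, gave 5. Without counts, values of a fraction of an FPKM cannot be given counting intervals.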
